A study of Mus musculus with 36 samples.

Results

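The Sox9 locus was examined as the H3K27ac peaks that overlapped mm9 chr11:110500000-113500000, a 3 Mb window with Sox9 near 112.64 Mb and long stretches of sequence on both sides. The window held 1812 of the 732259 peaks in 18 peak lists, and 162 of the 63594 consensus regions, which are stretches covered by peaks of at least 2 libraries. Each list came from 1 chromatin immunoprecipitation library of pooled forelimbs of FVB mouse embryos at embryonic day 11.5. The knockout lines each lacked 1 limb enhancer, named mm1179 (4 libraries), hs72, hs1262, hs1467, hs1586 and hs1603 (2 libraries each), and 4 libraries were wild type. No embryo in any group had been treated. How many embryos entered a pool, and how many founders a line had, were not given in the sources used here. Replicates are therefore separate libraries, and their spread may be technical.

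SOX9 is an HMG-box transcription factor that mesenchymal cells need in order to condense and become cartilage, and in the limb bud it is an early marker of the future skeleton. The gene lies in a gene-poor region, and enhancers far from the promoter are known to control it in several tissues. In humans, loss of 1 copy causes campomelic dysplasia, and lesions far upstream of the gene have been linked to Pierre Robin sequence. Acetylation of histone H3 at lysine 27 (H3K27ac) marks active promoters and enhancers. In the RefSeq gene order, which belongs to another build and was used only for names, Kcnj2, a potassium channel gene, and the predicted gene Gm11677 precede Sox9. Slc39a11, a zinc transporter gene, and Sstr2, a somatostatin receptor gene, follow it. In what follows, upstream is the side of lower coordinates, and a distance runs from the middle of a region to the 112.64 Mb position.

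The lists carried tags of 4 sequencing runs. Run 1 held replicates 1 and 2 of mm1179 and wild type, and run 2 held their replicates 3 and 4 together with hs72. Replicate 1 of hs1262, hs1467, hs1586 and hs1603 was in run 3 and replicate 2 in run 4, so these 4 lines share no run with wild type. The lists held 26550 to 58753 peaks, with the 3 shortest in run 3 and the 4 longest in run 4. Over the whole genome, each hs1467 list also lacked tiles that, otherwise, only an hs1262 list of the other run lacked. These were 3 tiles of 500 bp on chromosome 14 and 25 tiles on chromosome 4, the latter spread between positions 66882001 and 106662500. The replicate 1 lists of both lines, in run 3, also shared such tiles on many chromosomes, with 35 on chromosome 5. No such tile was common to both hs1262 lists, whereas the 2 hs1467 lists had 5 in common, on chromosome 11. Whether the names of these lines were exchanged in 1 run was not settled. Below, hs1262 and hs1467 mean the libraries so labelled, and every mean or count over the hs1467 libraries rests on these labels. The lists name no genes, so the tissue was not checked against markers. The score of a peak is the authors' own value. Its percentile within its list describes it there, and since the lists differ in length, percentiles were not tested.

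Each library had 70 to 155 peaks in the window, nearly all of them distal, and some distal regions were called in every genotype. Distal here means only outside the Sox9 promoter region. Whether a distal region is the promoter of another gene was not checked. Of the 162 regions, 25 were called in all 18 libraries, 17 of the 106 upstream and 8 of the 55 distal downstream regions. All 4 wild-type libraries called 49 regions, 1 to 3 called 64, and none called 49. Over the genome, 10497 of the 63594 consensus regions were called in all 18 libraries and 23161 in all 4 wild-type libraries. Of the 49 regions in all wild-type libraries, 25 (51.02%) were called in all 18, against 45.3% of such regions over the genome. The regions called in all 18 libraries were wide and high in their lists, with medians of 4807 bp for the width and 74.8 for the percentile. For those called in no wild-type library, the medians were 1600 bp and 17.6. Of these, 14 were called in run 4 alone, the run with the longest lists. A consensus region can only widen as more libraries call it, so the contrast in width follows in part from how the regions were chosen. No genome-wide medians are given beside these, and the contrasts are descriptions.

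Covered length was greatest just downstream of Sox9 and in the middle of the upstream side. In the 500 kb downstream of the Sox9 position, wild-type peaks covered 47.1 ± 6.36 kb (SD, n = 4). This length takes in 34 distal regions and also the promoter region, of which wild-type peaks covered 6.22 ± 1.21 kb. From 500 to 1000 kb upstream, wild-type peaks covered 37.0 ± 9.12 kb in 36 regions, 8 of them called in all 18 libraries. The wild-type ranges of these bins overlapped, 40.6 to 54.5 kb downstream, promoter included, and 29.5 to 50.1 kb upstream. The 500 kb next to the promoter on the upstream side were covered less, 22.2 ± 5.77 kb in 29 regions, of which 2 were called in all 18 libraries. From 1000 to 1500 kb upstream the covered length was 28.02 ± 10.1 kb in 22 regions, and from 1500 to 2000 kb it was 14.4 ± 3.67 kb in 16 regions. Beyond 500 kb downstream, 21 regions covered 16.3 ± 1.94 kb of the last 360.0 kb. At the far upstream edge, 3 regions covered 11.2 ± 2.75 kb of 140.0 kb, and 2 of these were called in every library. The map of peaks by library shows this spacing.

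**Figure D1:**
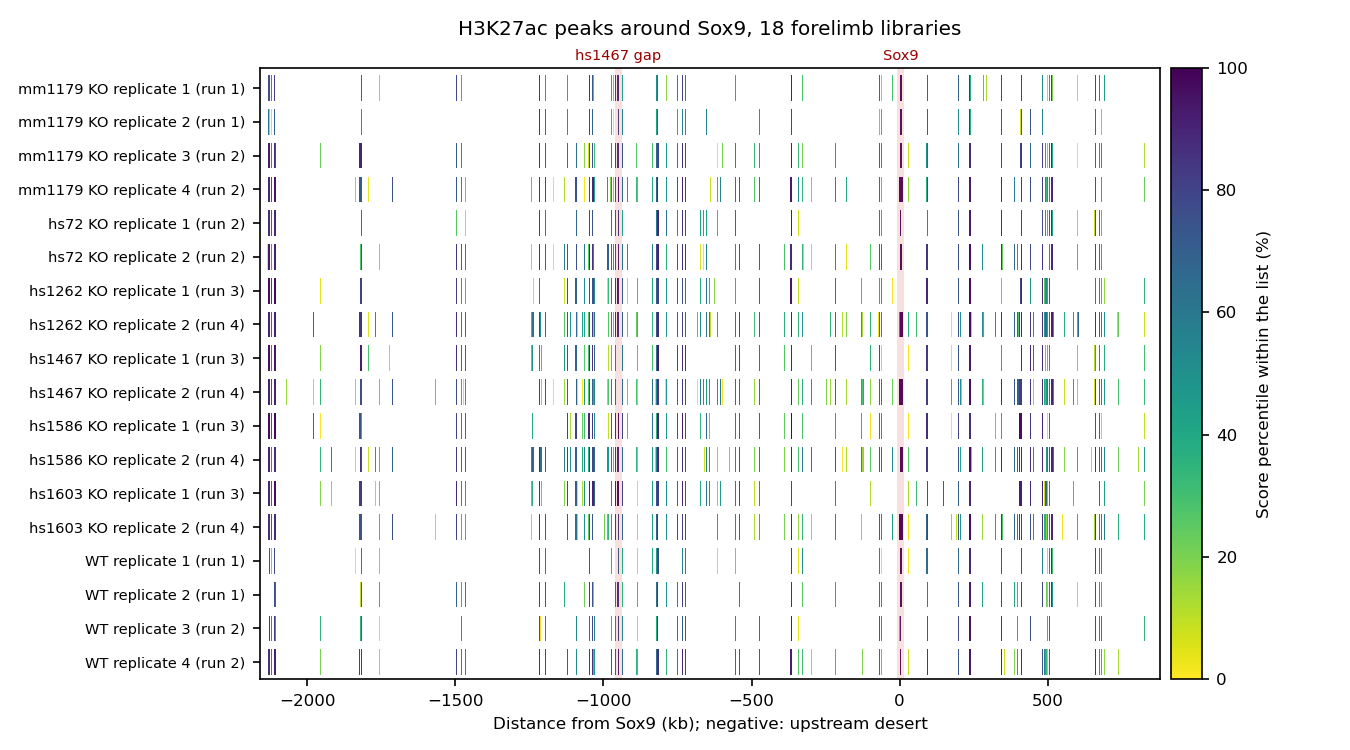
H3K27ac peaks of the 18 libraries in the Sox9 window. The x axis gives the distance from the Sox9 position in kb, each line of marks is 1 library with the enhancer knockouts above wild type, and each mark is a peak. The run 3 libraries have no mark at 0, and the 16 libraries other than hs1467 have a peak 950.2 kb upstream.

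The promoter region was the widest consensus region of the window, at chr11:112638837-112650739 (11.9 kb), and it covers the Sox9 position. It was called in 14 of 18 libraries, in every library of mm1179, hs72 and wild type and in replicate 2 of each other line. Peaks covered 6.01, 5.43, 7.11 and 10.8 kb of it in mm1179 replicates 1 to 4 and 5.64 and 7.61 kb in hs72. In run 4, the covered length was 11.9 kb for hs1262, 11.8 kb for hs1467, 11.0 kb for hs1586 and 11.2 kb for hs1603, against 5.46, 7.585, 4.97 and 6.86 kb in wild-type replicates 1 to 4. The 4 run 4 libraries therefore stood above all wild-type libraries, and mm1179 replicate 4 was the sole other library close to them. In mm1179 replicate 3, both hs72 libraries and wild-type replicates 3 and 4, another peak of the window was wider than any at the promoter. The promoter call was split into 2 or 3 peaks in hs72, hs1262 replicate 2 and wild-type replicates 3 and 4. By score, the promoter led the window, alone or tied, in 12 of the 14 libraries that called it. The percentiles were 95.6, 94.9, 94.1 and 96.1 in mm1179, 94.8 and 95.1 in hs72, 96.5 to 96.9 in run 4, and 95.4, 94.6, 91.5 and 94.7 in wild type. In run 4 the promoter peak had a score of 3100, a value that 3037 to 3629 peaks of those lists share. Promoter coverage did not differ between mm1179 and wild type beyond the spread, at 7.34 ± 2.42 kb in mm1179 and 6.22 ± 1.21 kb in wild type (SD, n = 4 each, exact two-sided permutation test, p = 0.514, smallest possible 0.0286). The difference of 1.12 kb was -0.805 kb within run 1 and 3.05 kb within run 2, and without mm1179 replicate 4 it was -0.0372 kb.

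No run 3 library called the promoter region. The nearest upstream peak ended 21.1 kb from it in hs1262, 58.9 kb in hs1467 and hs1586, and 97.1 kb in hs1603. The nearest downstream peak lay 79.5 kb away in hs1262 and 17.7 to 18.003 kb away in the other 3 libraries. Of the 36 regions of the window that the other 14 libraries all called, 5 (13.9%) were called in no run 3 library, against 23.5% of such regions over the genome. These were the promoter, regions 1713 and 1195 kb upstream, and regions 386 and 514 kb downstream. The promoter and the region 514 kb downstream stood high in the lists that did call them, at percentiles of 91.5 to 96.9 and 71.97 to 91.3. Replicate 2 of the same 4 lines, in run 4, is among those 14 libraries, so its calls of all 5 follow from the selection. The run 3 lists held 26550 to 32472 peaks with a mean width of 2801 to 3374 bp, against 30719 to 58753 peaks of 2039 to 2872 bp in the other runs. Their part in the missing calls was not tested.

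**Figure D2:**
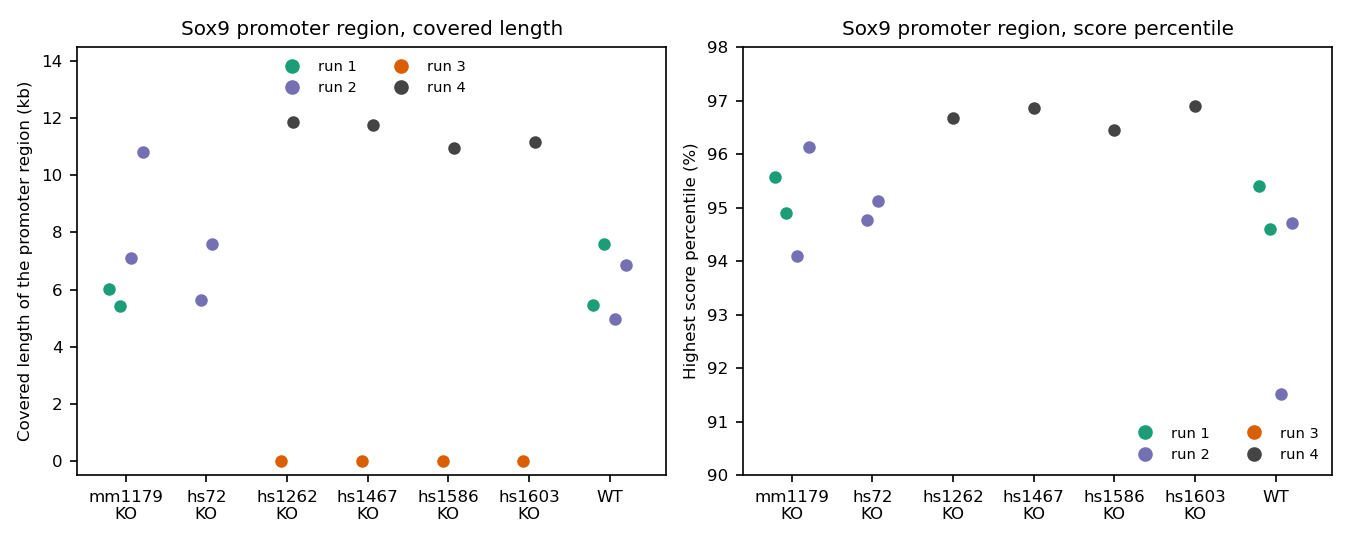
H3K27ac at the Sox9 promoter region. Points are libraries, by line and run, with the covered length in kb on one axis and the percentile of the strongest peak within its list on the other. The run 4 libraries lie at 11.0 to 11.9 kb, wild type at 4.97 to 7.585 kb, and the run 3 libraries have no peak.

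The strongest distal regions lay on both sides of Sox9. By mean percentile over the wild-type libraries, the first was 237 kb downstream (chr11:112874303-112880005) and the next 366 kb upstream (chr11:112271500-112276306). Each was called in all 18 libraries. At the region 237 kb downstream, the percentile was 85.6, 84.1, 86.9 and 92.6 in mm1179 replicates 1 to 4 and 92.8 and 95.7 in hs72. It was 96.7 and 96.7 in hs1262, 93.3 and 96.9 in hs1467, 86.6 and 96.5 in hs1586, and 89.2 and 96.9 in hs1603, against 88.9, 92.8, 94.3 and 93.6 in wild type. The region was chosen for its high wild-type percentile, so nothing is read from lower values in a knockout. Its covered length was 5.06 ± 0.534 kb in mm1179 and 5.08 ± 0.315 kb in wild type (SD, n = 4 each). As in the promoter, the run 4 peaks had the shared score of 3100.

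At the region 366 kb upstream, the percentile was 90.4, 79.3, 91.6 and 93.6 in mm1179, 93.0 and 89.1 in hs72, and 79.7 to 97.8 over the 8 libraries of the other lines, against 82.6, 86.7, 91.8 and 92.2 in wild type. Its groups overlapped throughout. Of the 10 highest distal regions, it is the nearest to the promoter on the upstream side. The region 514 kb downstream (chr11:113151696-113156771) had percentiles of 71.97 to 88.4 in mm1179, 85.4 and 89.0 in hs72 and 89.1 to 91.3 in run 4, against 82.7 to 88.3 in wild type, with no call in run 3. The region 343 kb downstream had percentiles of 72.1 to 87.8 in mm1179 and 73.9 to 89.4 in wild type. In run 3 it reached 21.3 in hs1262, 38.2 in hs1467 and 37.9 in hs1586 and was not called in hs1603, whereas run 4 gave 85.8 to 88.5 in the same lines. This distal region was thus also low or missing in run 3.

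The far upstream regions 2127 and 2109 kb from Sox9 were called in all 18 libraries and lie nearer to the window's edge than to the gene. Their mean wild-type percentiles were 80.0 and 82.0. The region 816 kb upstream had percentiles of 65.3, 68.9, 78.1 and 87.8 in mm1179, 90.1 and 90.5 in hs72, and 81.2 to 93.2 in the other lines, against 78.5, 83.5, 84.0 and 87.2 in wild type. The remaining regions among the 10 highest lay 950.2 and 1215 kb upstream and 408 kb downstream. The region 1215 kb upstream was called in 17 libraries and missed in hs1586 replicate 1. The widest distal region was the one 408 kb downstream (chr11:113043437-113052459, 9.02 kb). Peaks covered 6.26 ± 0.894 kb of it in mm1179 and 5.53 ± 0.479 kb in wild type (SD, n = 4 each). The next in width lay 1819, 1036, 2127 and 2109 kb upstream, at 7.77, 7.14, 7.04 and 6.70 kb.

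Peaks of the window were narrower on average than those of the list as a whole. The mean width in the window was below the mean of the whole list in 18 of 18 libraries, and the median width in the window was below the list's median in 16 of 18. In mm1179 the mean width was 2209 ± 318 bp in the window and 2335 ± 264 bp in the list, and in wild type it was 1980 ± 162 bp in the window and 2183 ± 104 bp in the list (SD, n = 4 each). In hs72 the window means were 2082 and 2307 bp. Over the other 4 lines they were 2534 to 3208 bp in run 3 and 2326 to 2568 bp in run 4.

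In the 2 hs1467 libraries, a distal region 950.2 kb upstream of Sox9 had no peak. A stretch of 2.5 kb at chr11:111688501-111691000 was covered, for at least 2.29 kb, in each of the 16 libraries of the other genotypes and in neither hs1467 library. It made up 5 tiles of 500 bp, counted as covered when peaks spanned at least 250 bp. Of the 46742 tiles over the genome that all 16 other libraries covered, 5 (0.0107%) were lost in both hs1467 libraries, and these were the 5 in this window, out of 116 such tiles there. The coordinates of the deleted element were not given in the sources used here.

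The region around the stretch, chr11:111687151-111692487 (5.34 kb), was among the stronger ones in the other genotypes. Its percentile was 84.9, 78.8, 82.6 and 90.8 in mm1179 and 83.6 and 89.2 in hs72. It was 91.4 and 84.9 in hs1262, 95.9 and 86.7 in hs1586, and 95.5 and 80.9 in hs1603, against 67.0, 82.4, 81.5 and 89.5 in wild type. The lowest value was thus that of wild-type replicate 1 and the highest that of hs1586 in run 3. The peaks of the 16 libraries were 2.58 to 5.47 kb long with a median of 3.82 kb, and they had 2.48 kb in common. In hs1467 the stretch without any peak was 21.5 kb long in each library, from the end of the next peak upstream to the start of the next peak downstream. In the other 16 libraries the peaks on either side stood 15.9 to 24.1 kb apart with the peak between them. The gap was therefore 1 missing peak, and the peaks beside it were still called.

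**Figure D3:**
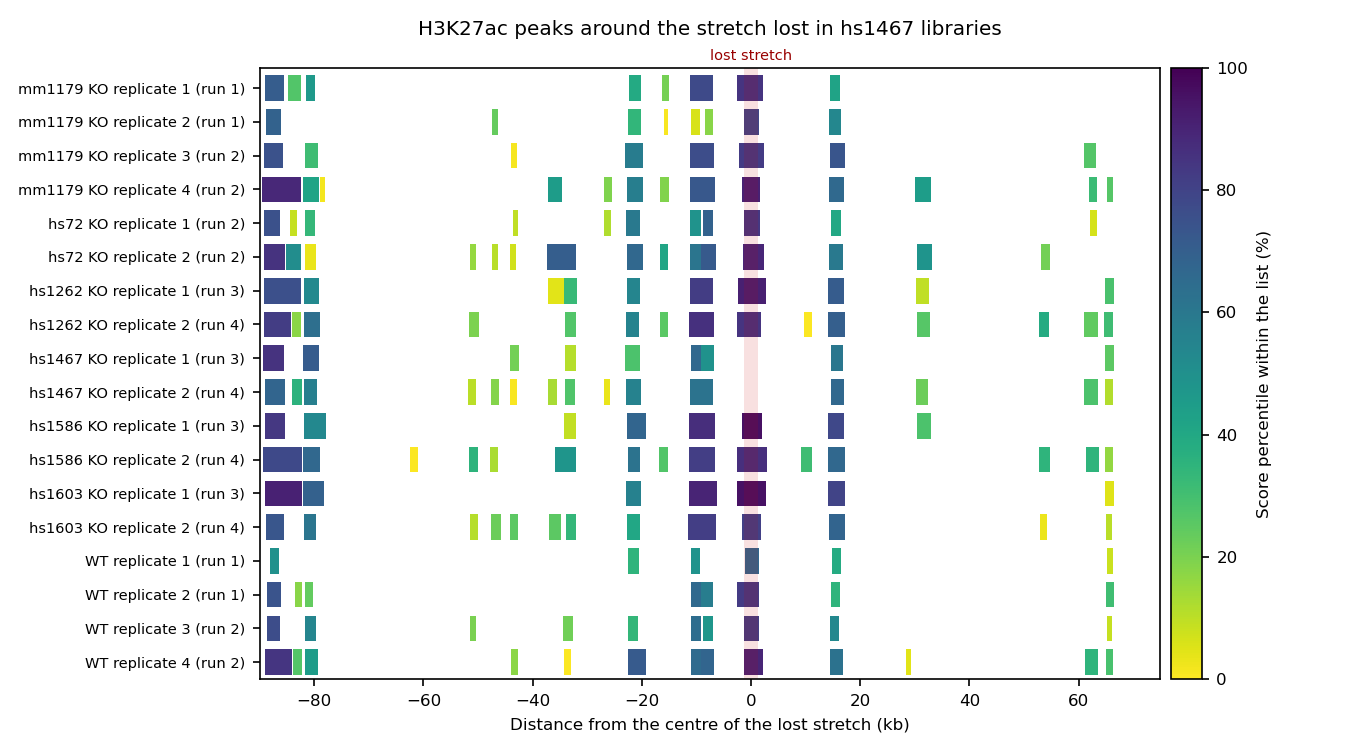
H3K27ac peaks around the stretch without a peak in hs1467. The x axis gives the distance in kb from the centre of the stretch, each line of blocks is 1 library with the knockouts above wild type, and colour gives the percentile of a peak within its list. Blocks cover at least 2.29 kb of the shaded 2.5 kb in 16 libraries, and neither hs1467 library has one there.

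The neighbouring region 959 kb upstream (chr11:111678358-111683397) was called in hs1467 but ranked lower there than in the sister lines of the same run. In run 3 its percentile was 66.5 in hs1467, against 82.3 in hs1262, 87.1 in hs1586 and 89.97 in hs1603. In run 4 it was 61.8 in hs1467, against 86.2 in hs1262, 81.8 in hs1586 and 81.9 in hs1603. The score was 172 in hs1467, against 297, 314 and 467 in the sister lines in run 3, and 308 in hs1467, against 1434, 1076 and 969 in run 4. In both runs the hs1467 library stood apart from its 3 sisters, which did not overlap with it. In run 3, however, the hs1467 call was split into peaks at 66.5 and 48.9, of which the higher is given. The sister lines had unsplit peaks there, and in run 4 none of these calls was split. The effect of the split on the score was not tested. Covered lengths differed less, at 4.10 kb in hs1467 and 4.26 to 4.99 kb in the sister lines in run 3, and 4.35 kb in hs1467 and 4.68 to 4.90 kb in run 4. In wild type, in the other runs, the region stood at 48.8, 66.4, 64.6 and 67.8, a range in which both hs1467 percentiles lie.

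The region 935 kb upstream (chr11:111703854-111706955), on the side towards Sox9, had a percentile of 60.4 in hs1467, against 71.4, 78.3 and 79.8 in the sister lines in run 3. In run 4 it was 66.68 in hs1467, against 66.71 to 69.99 in the sister lines, a gap too small to tell from none. The region 971 kb upstream had 28.4 in hs1467 and 54.5 to 67.9 in the sister lines in run 3, but 56.2 in hs1467 and 40.4 to 62.1 in run 4. Over the window, 5 of the 46 regions called in all 8 libraries (10.9%) ranked below all 3 sister lines in both runs in hs1467, against 4.32% over the genome, and 1 (2.174%) ranked above, against 6.25%. The lower ones lay 1120, 959, 935 and 653 kb upstream and 408 kb downstream, and the higher one 553 kb upstream. Without the region 935 kb upstream, with its gap of 66.68 against 66.71 in run 4, 4 were lower. With 2 hs1467 libraries, these counts are descriptions.

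**Figure D4:**
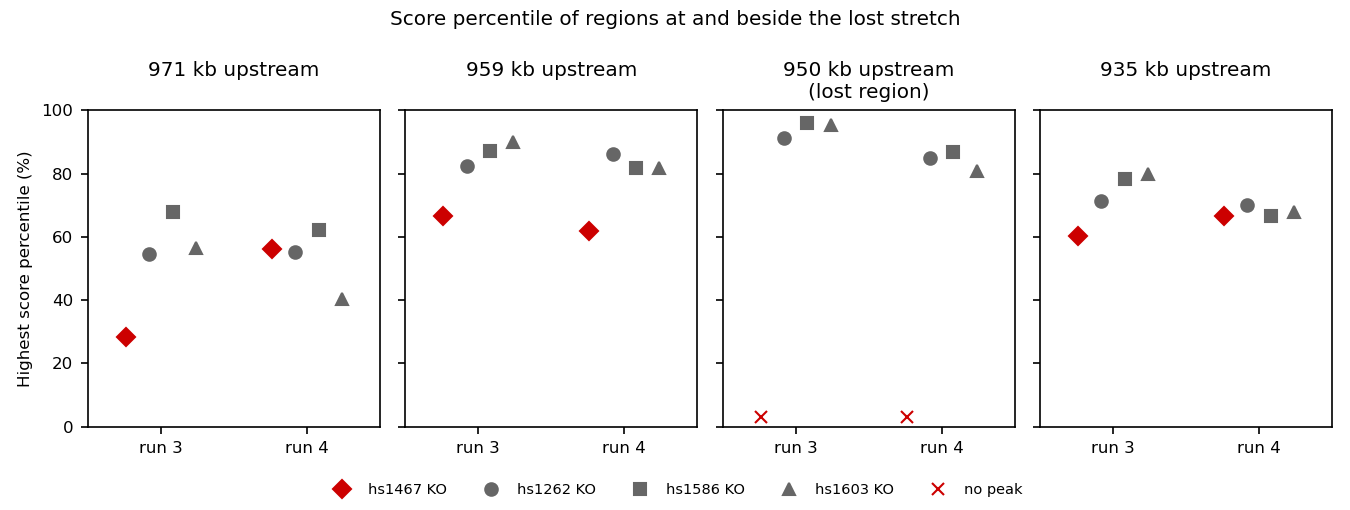
Percentile of the strongest peak in 4 regions at and beside the stretch without a peak in hs1467, by run. Red diamonds are hs1467, grey symbols the sister lines, and crosses, drawn near the axis, mark libraries with no peak. The hs1467 library lies below its sisters in both runs at 959 kb, and in run 4 at 935 kb it lies at 66.68 beside 66.71.

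No difference in covered length over the whole window was detected between hs1467 and its sister lines, in a design that cannot reach 0.05. Peaks covered 220 kb in hs1467, against 228 kb in hs1262, 234 kb in hs1586 and 240 kb in hs1603 in run 3. In run 4 they covered 384 kb in hs1467, against 385 kb in hs1262, 384 kb in hs1586 and 321 kb in hs1603. Within runs, hs1467 minus the sister lines was 3.72 kb, at means of 302 kb in hs1467 and 299 kb in the sister lines (exact two-sided permutation test within runs, p = 0.9375, smallest possible 0.0625). The difference was -13.5 kb in run 3 and 21.0 kb in run 4. Without hs1603 replicate 2 it was -6.89 kb, and without either hs1467 library it was the value of the remaining run.

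No region of the window was called throughout mm1179 or wild type and missed throughout the other group. Of the 138 window regions called in at least 1 of these 8 libraries, 0 were called in no mm1179 library while every wild-type library called them, against 0.0769% of such regions over the genome. In the reverse direction the number was also 0, against 0.0348%. In Fisher's exact tests of each region, 0 of 54583 regions passed after Benjamini-Hochberg adjustment, which 4 libraries a side could not reach, since their smallest p is 0.0286. At an unadjusted p under 0.05 there were 61 regions over the genome and 0 in the window, which are the same all-or-none regions counted above. Of the 49 window regions called in all wild-type libraries, mm1179 replicates 1 to 4 called 43 (87.8%), 40 (81.6%), 47 (95.9%) and 47 (95.9%). Over the genome they called 94.5, 87.9, 96.8 and 99% of such regions. The window shares were lower, but with 49 regions the gaps amount to a few calls at most and were not tested.

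Window totals did not separate mm1179 from wild type. The mm1179 libraries had 79, 70, 89 and 113 peaks, against 75, 80, 93 and 107 in wild type (difference -1 of means 87.75 and 88.75, exact two-sided permutation test, p = 0.971). The difference in peaks turned positive without mm1179 replicate 1 (1.92) or 2 (4.92) or wild-type replicate 3 (0.417) or 4 (5.08). Peaks covered 168, 126, 222 and 273 kb in mm1179, against 139, 171, 170 and 225 kb in wild type, 197 ± 64.1 kb in mm1179 and 176 ± 35.8 kb in wild type (SD, n = 4 each, exact permutation p = 0.657). The difference was 21.0 kb over all libraries, -8.14 kb in run 1 and 50.1 kb in run 2. Without mm1179 replicate 4 it was -4.25 kb.

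As a share of the length covered over the genome, the window varied less between libraries. It held 0.208, 0.201, 0.229 and 0.237% of the covered length in mm1179, against 0.184, 0.198, 0.209 and 0.221% in wild type. The difference of 0.0155 percentage points, 0.219 ± 0.0169% in mm1179 and 0.203 ± 0.0159% in wild type, did not pass the test (n = 4 each, exact two-sided permutation test, p = 0.229). In each run, both mm1179 shares lay above both wild-type shares, by 0.0133 points on average in run 1 and 0.0177 points in run 2. Within-run arrangements gave the smallest p that they allow, 0.0556, which cannot pass 0.05.

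**Figure D5:**
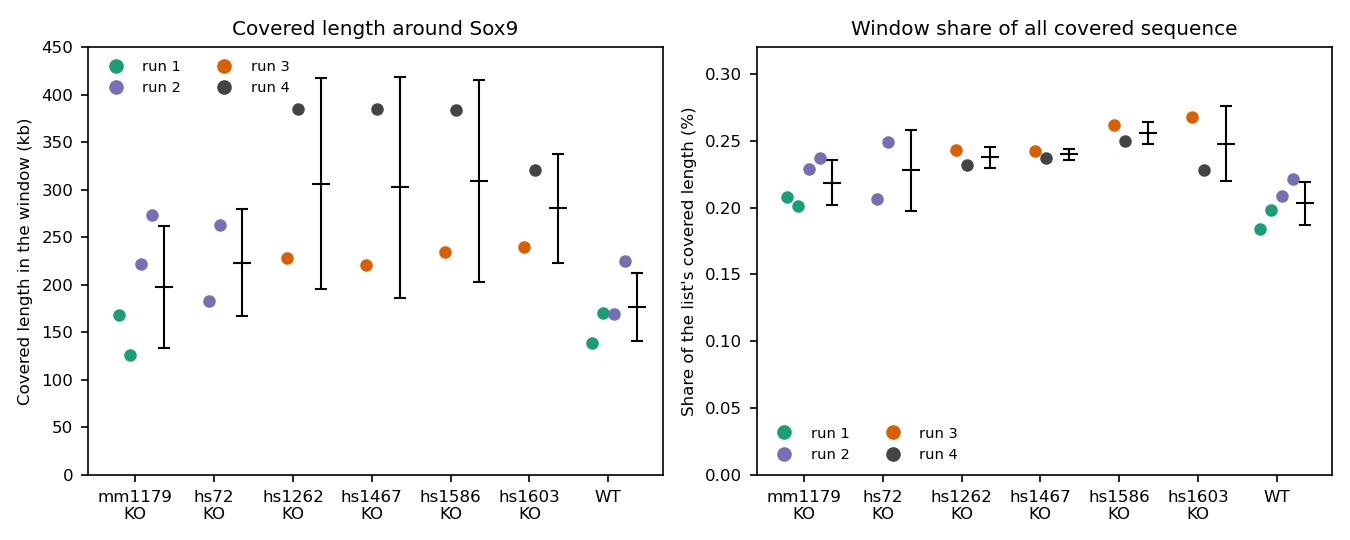
Covered length in kb in the Sox9 window and its share of all covered length in percent. Points are libraries coloured by run, and bars give the mean and SD of each genotype. The run 4 libraries cover 321 to 385 kb, above every other library, while the shares lie closer together.

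In the other lines, window totals moved with the run. The run 3 libraries had 73 to 87 peaks and covered 220 to 240 kb, and the run 4 libraries of the same genotypes had 138 to 155 peaks and covered 321 to 385 kb. The groups do not overlap. The share of covered length was 0.242 to 0.268% in run 3 and 0.228 to 0.25% in run 4, and these ranges overlap. Of the 49 regions called in all wild-type libraries, the run 3 library of hs1262 called 41 (83.7%, against 70.4% over the genome) and that of hs1467 called 38 (77.6%, against 70.5%). In the same run, hs1586 called 38 (77.6%, against 66.8%) and hs1603 called 39 (79.6%, against 59.7%). In run 4, hs1262 and hs1467 called 48 each and hs1586 and hs1603 called 49 each, against 99.9% over the genome in each library.

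Against the 37 window regions called in all 10 libraries of runs 1 and 2, the run 3 library of hs1262 missed 5 (13.5%, against 29.5% over the genome) and that of hs1467 missed 7 (18.9%, against 30.1%). The hs1586 library missed 6 (16.2%, against 33.3%), and the hs1603 library missed 9 (24.3%, against 41.9%). In run 4, the missed regions were 0 in hs1262, hs1586 and hs1603 and 1 in hs1467, the region 950.2 kb upstream, against 0.0105% over the genome in hs1467. These 4 lines share no run with wild type, so line and run cannot be told apart in a comparison with it.

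The hs72 libraries were set beside the 2 wild-type libraries of run 2. They had 88 and 114 peaks covering 183 and 263 kb, against 93 and 107 peaks covering 170 and 225 kb in wild type. The groups overlapped in both measures. Of the 129 window regions called in at least 1 of these 4 libraries, 3 were called in both wild-type libraries and neither hs72 library (2.33%, against 2.24% over the genome). Both hs72 libraries and neither wild-type library called 6 regions (4.65%, against 2.46% over the genome). Of the 49 window regions called in all wild-type libraries, hs72 called 47 (95.9%, against 95.7% over the genome) in replicate 1 and 46 (93.9%, against 97.9%) in replicate 2. With 2 libraries a side, an exact test cannot go below 0.333.

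Most of these regions stood low in their lists. The 3 without a call in hs72 lay 1955, 1332 and 885 kb upstream, and their wild-type percentiles in run 2 were 35.4 and 20.3, 4.29 and 18.5, and 8.96 and 29.2. The 6 called in hs72 lay 1238, 1130, 671 and 661 kb upstream and 322 and 600.4 kb downstream, with hs72 percentiles of 2.16 to 58.1, the highest at 1130 kb upstream in replicate 2. Wild-type libraries of run 1 called 4 of these 6, and no wild-type library called those 1238 kb upstream and 322 kb downstream. None of the 10 strongest distal regions was among these regions. Those 10 were chosen by wild-type percentile and the 6 for lacking wild-type calls in run 2, so nothing is read from this.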

How the data were processed

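H3K27ac ChIP-seq peak lists of 18 libraries were used, without the 18 input samples, which were not analysed here. The labels gave groups and replicate numbers, and tags on the lists gave runs. The submitters' processing notes name MACS 1.4.2, Bowtie 0.12.8, cutadapt 1.1, bcl2fastq 2.17 and CASAVA, with build mm9. Each deposited list gives positions and the authors' score, from 40 to 3233, used to rank or filter peaks within a list. Read numbers are not in the lists, so the depth is unknown and a missing peak is a missing call. Lists with more reads can hold more and wider peaks.

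Consensus regions were covered by at least 2 libraries, and an overlap of 1 bp made a call. Values were compared by exact permutation tests and regions by Fisher's exact test, with a threshold of 0.05 (Python 3.11.15, numpy 2.4.6, scipy 1.17.1, figures with matplotlib 3.10.9). Named regions were the promoter, those losing tiles in hs1467, the 10 distal regions with the highest mean wild-type percentile, the 5 widest, and regions called in all libraries of 1 group and none of the other, for mm1179 and for hs72 with wild type. As alternatives, peaks scoring under 100 were left out, lists were cut to their top 26550 peaks, tiles were 1000 bp, gaps needed 90% of the other libraries, and overlap was raised to 50%. Regions of 1 library were also kept, labels were arranged otherwise, and each library was left out. Neighbours of the stretch without a peak in hs1467, and regions behind counts of 5 or fewer, were named after their values were seen. The window, its members and the tests were chosen with earlier results of these data known.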

Additional observations from a re-analysis of the deposited data

Results flagged for a closer look

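Of 46 groups of 4 libraries examined for a library far from the others, 2 had one, and chance gives about 1 in 20. Both concern the region 959 kb upstream of Sox9, beside the stretch without a peak in hs1467. Its percentile was 17.6 in mm1179 replicate 2, against 72.7 to 77.4 in the other mm1179 libraries. It was 48.8 in wild-type replicate 1, against 64.6 to 67.8 in the other wild-type libraries. In mm1179 replicate 2 the call was split into peaks at 6.21 and 17.6, whereas the other mm1179 libraries had unsplit peaks. In wild-type replicate 1 an unsplit peak covered 1.71 kb, against 3.65 to 4.135 kb in split peaks of the other wild-type libraries. Both libraries belong to run 1.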

How the results depend on the processing

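Under the alternatives, 109 values were recomputed, of which 91 were classed as unchanged, 12 changed sign and 6 were counts that moved. Unchanged differences kept their sign and their side of 0.05. Counts have no p, and a lost-tile count of 6 in place of 5 was classed as unchanged. Rearranged labels leave a difference as it is. No difference passed 0.05 under any alternative, but within-run and block arrangements cannot reach it (smallest possible 0.0556 to 0.125). The cause of the changes was not tested. For mm1179 minus wild type, the peak difference of -1 was 3.5 with a minimum score of 100 and 0.5 with lists of equal length, and -9.42 to 5.08 with 1 library left out. Leaving out 1 library gave -4.25 to 44.8 kb for the covered length, 0.00906 to 0.0216 points for the share, and -0.0372 to 1.76 kb for the promoter. The counts of regions in all of 1 group and none of the other were 0 to 1 in both directions. The hs1467 difference of 3.72 kb was -3.89 kb with the minimum score, -16.6 kb with equal lists, and -13.5 to 21.0 kb with 1 library left out. The lost tiles were 5 to 6 with 1 library left out and 2 with tiles of 1000 bp. Both kinds of count need every library to comply, so leaving 1 out makes them easier to meet. Without run 3, an alternative added after the data were seen, 36 regions in place of 25 were called in every library, and the promoter in 14 of 14. Both follow from the dropped libraries, since run 3 alone missed the promoter and fewer libraries can only keep or raise the first number.

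With same-numbered libraries as a block, the mm1179 differences stay the same by arithmetic, at -1 peak, 21.0 kb, 0.0155 points and 1.12 kb. Exact permutation within these blocks gave p of 1, 0.375, 0.125 and 0.5 (smallest possible 0.125). The numbers share little, with correlations of 0.0135 to 0.11 and 2 of 4 libraries nearest to their own number. For hs1467 the block is the run, at 3.72 kb, and exact permutation across both runs gave p = 0.964. The lists give no read counts, so the reads behind a missing call are unknown.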
